A study of Mus musculus with 20 samples.

Results

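RNA was read in cells sorted from mouse nerve by an endothelial reporter. The genes described here are the ones whose RNA was higher at 7 days after injury and higher still at 14 days. They were chosen by measured values: in the Tomato experiment each count was divided by its library's total and multiplied by 1000000 (CPM), and L was the group mean of log2(CPM + 1). A gene was kept when L at 7 days exceeded L in intact nerve by at least 1, L at 14 days exceeded L at 7 days by at least 0.5, and its mean CPM at 14 days was at least 5. Gene models named Gm with a number, or Rik, were dropped. Of 55376 genes in the table, 10778 were named and had a mean of at least 5 CPM at 14 days, 807 of those met the first step, and 43 met both.

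Bulk polyA RNA was sequenced from cells sorted as reporter-positive and negative for CD45, a surface protein of blood-derived leukocytes, out of enzymatically dissociated mouse sciatic nerve. In the Tomato experiment, adult mice labelled wild type for Plxnd1 carried Cdh5(PAC)-CreERT2, a tamoxifen-inducible Cre driven by the VE-cadherin promoter, and the R26-TdTomato reporter. Their cells were taken from intact nerve (5 libraries) and, after injury, from the lesion on day 7 (7 dpi, 5 libraries) and day 14 (14 dpi, 4 libraries). For the Cherry experiment, cells carrying a Kdr-Cherry reporter came from the lesion at 7 dpi, either from Plxnd1 WT control mice (3 libraries) or from Cdh5-CreER; Plxnd1 fl/fl mice, in which endothelial cells lose the semaphorin receptor Plexin-D1 (KO, 3 libraries). The Tomato label marks cells in which the Cdh5 promoter drove Cre, and their descendants, whereas the Cherry label follows Kdr, so the 2 sorts need not take the same cells. Nerves were pooled for each library, and the labels do not say which animals a library came from. Every group held libraries of both label batches, 1133 and 1292. The labels name the injury a crush and the design text names the sampled region a bridge.

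After a peripheral nerve is injured, blood vessels grow into the lesion ahead of Schwann cells and axons, and fibroblasts lay down a collagen-rich matrix around them. Fibrillar collagens are made as procollagens, cut by secreted proteases and assembled into fibrils whose width is set by minor collagens and small leucine-rich proteoglycans; metalloproteinases later trim that matrix. Fibrillar collagens and these proteoglycans are textbook products of fibroblasts more than of endothelial cells, and a sorted fraction can also carry RNA of neighbouring cells.

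The promoters of the 4 genes with the greatest further increase between 7 and 14 dpi are shown first, since these genes lead the set by the measure that defines it. Each line gives the 250 bases before the transcription start from RefSeq (GRCm38.p6), 5′ to 3′, with capitals for TATAAA or CCAAT on either strand.
Amn promoter (chr12:111270846-111271095, plus strand): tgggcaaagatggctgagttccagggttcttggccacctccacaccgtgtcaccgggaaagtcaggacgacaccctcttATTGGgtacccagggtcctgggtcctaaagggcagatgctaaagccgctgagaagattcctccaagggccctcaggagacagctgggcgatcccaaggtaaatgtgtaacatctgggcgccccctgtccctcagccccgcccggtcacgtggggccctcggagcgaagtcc
Adamtsl2 promoter (chr2:27079129-27079378, plus strand): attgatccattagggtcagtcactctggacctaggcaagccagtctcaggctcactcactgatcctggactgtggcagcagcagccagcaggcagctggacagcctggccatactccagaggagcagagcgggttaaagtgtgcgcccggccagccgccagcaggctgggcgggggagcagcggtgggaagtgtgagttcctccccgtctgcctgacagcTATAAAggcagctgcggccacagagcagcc
Gcg promoter (chr2:62483654-62483903, minus strand): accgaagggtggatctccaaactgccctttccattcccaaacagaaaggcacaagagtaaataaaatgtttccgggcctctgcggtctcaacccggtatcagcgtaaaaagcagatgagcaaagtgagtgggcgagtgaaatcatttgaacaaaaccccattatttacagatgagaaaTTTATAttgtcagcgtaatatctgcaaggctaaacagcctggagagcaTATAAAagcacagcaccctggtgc
Col3a1 promoter (chr1:45311288-45311537, plus strand): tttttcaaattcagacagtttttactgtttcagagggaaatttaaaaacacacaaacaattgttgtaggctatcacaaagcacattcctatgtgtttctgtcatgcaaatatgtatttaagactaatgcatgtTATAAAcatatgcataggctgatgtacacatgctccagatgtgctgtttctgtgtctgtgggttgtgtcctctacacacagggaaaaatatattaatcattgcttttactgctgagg

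Gcg and Adamtsl2 held TATAAA on the sense strand shortly before the start, with the first base of the match nearest the start 24 and 30 bases upstream. In Col3a1 the single match began 117 bases upstream, and Amn held none and had 1 CCAAT, on the opposite strand. A RefSeq promoter was found for 33 of the 43 genes. The motif TATAAA, searched on both strands, was in 6 of these 33 (18.2%) and in 6.09% of the promoters of 8568 named genes with a mean of at least 5 CPM at 14 dpi. On the sense strand, 40 to 16 bases before the start, it was in 3 of 33 (Adamtsl2, Gcg and S100a4, 9.09%) against 1.03% of the 8568. The motif CCAAT was in 33.3% and 36.5%, TGANTCA (the AP-1 motif) in 3.03% and 4.07%, and GGGCGG (the SP1 motif) in 39.4% and 61.9%, all on both strands. The CACGTG box was in 6.06% and 8.60%. The median GC content was 54.8% against 60.4%, and the median number of CpG dinucleotides was 7 against 16. Motif matches are descriptions of these windows, and no binding was measured.

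Library totals ran from 19057029 to 34181449 counts in the Tomato experiment and from 19253137 to 33793402 counts in the Cherry experiment. The deleted gene Plxnd1 was at 359, 316 and 357 CPM in Cherry WT and at 125, 158 and 163 CPM in Cherry KO, without overlap. All 16 pan-endothelial markers were present, and their summed level was 8579 to 16255 CPM in the Tomato and 15147 to 16977 CPM in the Cherry libraries. Of the Tomato libraries, 3 stood apart in the genes described here. Replicate 3 at 14 dpi and replicate 4 at 7 dpi had high levels of macrophage genes. There, 11 macrophage markers outside the 43 genes summed to 288.5 and 65.5 CPM, and to 7.86 to 25.3 CPM in the other 12. Replicate 3 at 7 dpi was low in collagens and other matrix genes. It also had the lowest fibroblast marker sum of the 7 dpi group (3626 CPM, 7054 to 9460 in the others), the lowest perineurial sum (646 CPM, 1195 to 1332) and the highest pan-endothelial sum (15035 CPM, 10128 to 12113). Without replicate 3 at 14 dpi, 21 of the 43 genes met the rule and no other gene did.

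Most genes that met the first step had a lower level at 14 than at 7 dpi, and the 43 genes are those that were higher by at least 0.5. Of the 807 genes up by at least 1 at 7 dpi, 533 (66.0%) were lower by at least 0.5 from 7 to 14 dpi, 96 (11.9%) had a difference above 0 and 43 (5.33%) reached 0.5. The median difference in log2(CPM + 1) from 7 to 14 dpi was 0.72 for the 43 genes, -0.67 for the 807 and -0.02 for all 10778. The preceding difference, from intact to 7 dpi, had a median of 1.49 for the 43 genes and 1.53 for the 807. These values chose the genes and are given as a description, with no test.

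Summed over the 43 genes, the share of all counts was 0.247 to 0.377% in the intact libraries, 0.475 to 1.90% at 7 dpi and 1.10 to 2.99% at 14 dpi. The 14 dpi range overlapped the 7 dpi range, with replicate 1 at 14 dpi (1.10%) below replicates 4 and 5 at 7 dpi (1.80 and 1.90%). In single genes, every 14 dpi library lay above every 7 dpi library for 4 of the 43, namely Gcg, Adamts17, Nipal1 and Antxr1, where 6.7% of all 10778 genes did so. All 14 dpi libraries lay above all intact libraries for 36 (7.41% of all genes), and all 7 dpi libraries lay above all intact ones for 18 (17.2% of all genes). With edgeR's quasi-likelihood test (Benjamini-Hochberg adjusted p under 0.05), 38 of the 43 were called higher at 7 dpi than in intact nerve (15.7% of all 20409 genes tested), 6 higher at 14 than at 7 dpi (5.73%) and 39 higher at 14 dpi than in intact nerve (6.86%). The 6 were Adamts17, Amn, Antxr1, Col3a1, Gcg and Htra3. Nothing is read from these counts, since the rule used the same contrasts.

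**Figure D1:**
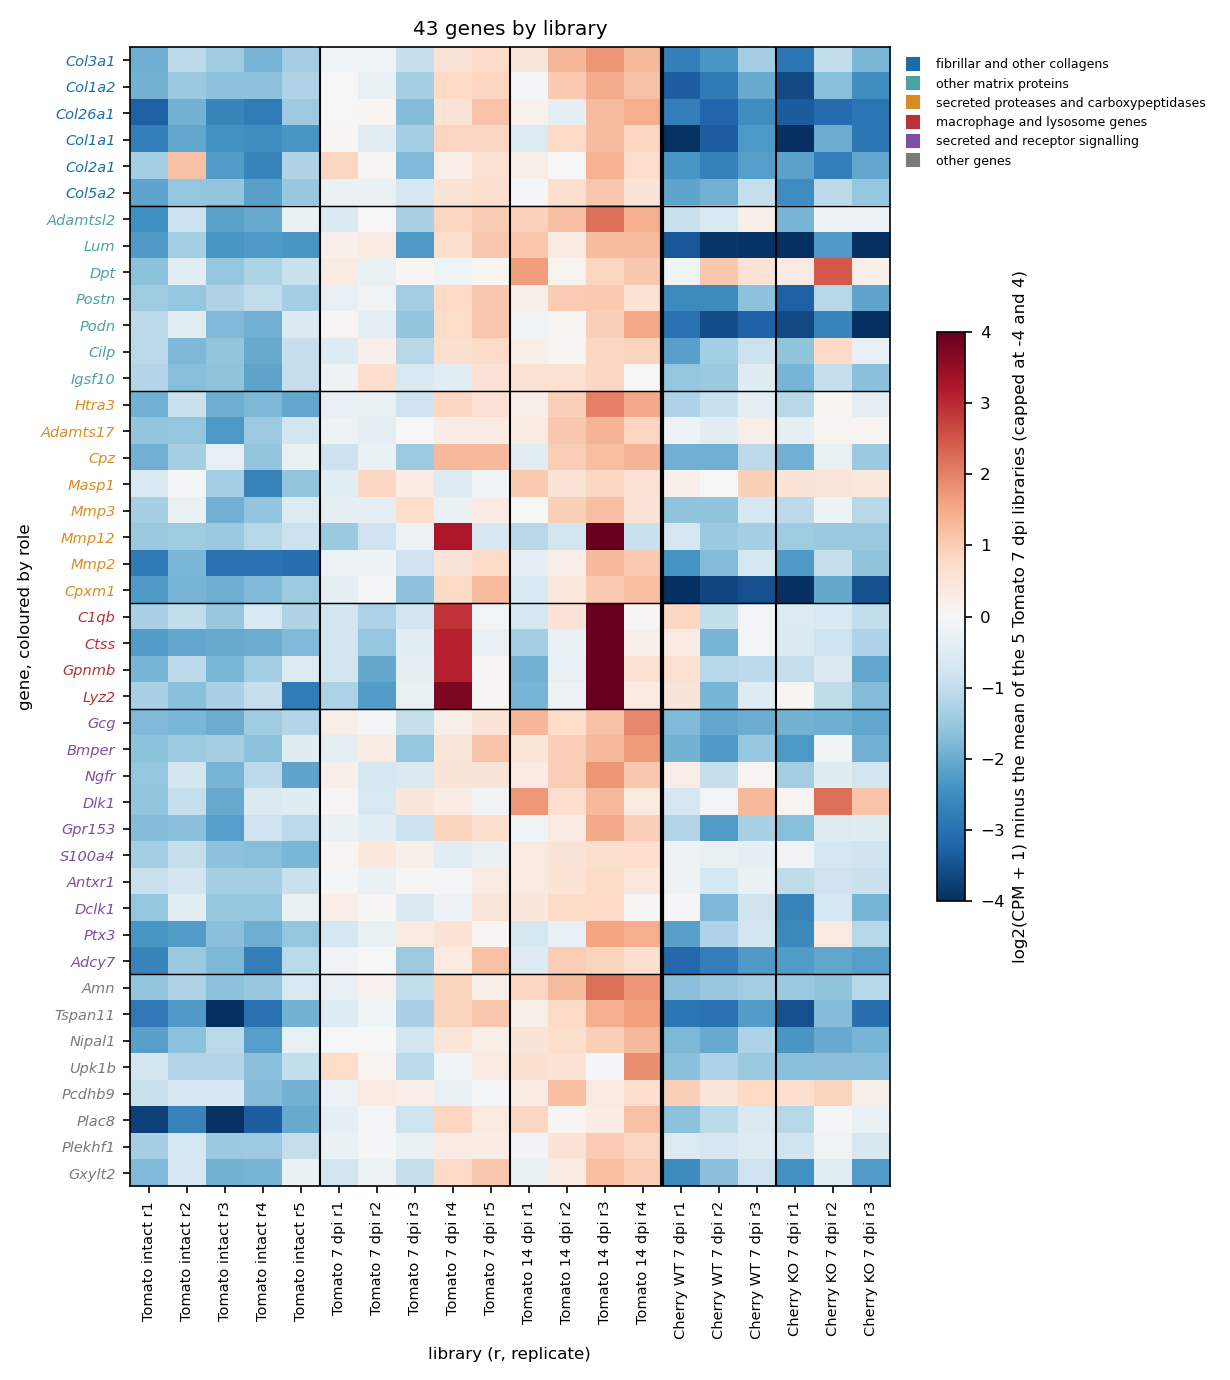
Heat map of the 43 genes (rows, grouped and coloured by role) in the 20 libraries (columns). Colour is log2(CPM + 1) minus the gene's mean over the 5 Tomato 7 dpi libraries, capped at -4 and 4; the thick line parts the Tomato from the Cherry experiment, whose CPM were scaled separately. Mmp12 and the 4 macrophage and lysosome genes are dark in Tomato 7 dpi replicate 4 and 14 dpi replicate 3, and the collagens are blue in the Cherry libraries.

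The genes closest to each threshold differed little across it. For the step from intact nerve to 7 dpi, Antxr1 (1.04) and Dclk1 (1.08) lay just inside, and S1pr2 (0.98) and Nrep (0.96) just outside. For the step from 7 to 14 dpi, Adcy7 and Igsf10 (both 0.51) lay just inside, and Olfml2a (0.47) and Ctsk (0.46), the collagen-degrading cathepsin K, just outside. For the level at 14 dpi, Upk1b (5.04 CPM) and Mmp3 (5.34 CPM) were just inside, and Kera (4.49 CPM) and Klrb1a (4.47 CPM) just outside.

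The 6 collagens held most of the RNA. Col3a1, the chain of type III collagen (chromosome 1, 45311538-45349706, GRCm38, plus strand), read 753, 1410, 1080, 805 and 1147 CPM in the intact libraries, 2575, 2595, 1522, 4196 and 4929 CPM at 7 dpi and 4033, 7276, 9954 and 7189 CPM at 14 dpi. The intact and 7 dpi libraries were fully separate, and 3 of the 4 libraries at 14 dpi exceeded every library at 7 dpi, replicate 1 being the exception. Its mean was 1039 ± 268 CPM (SD, n = 5), 3164 ± 1374 CPM (n = 5) and 7113 ± 2421 CPM (n = 4), and its difference from 7 to 14 dpi was 1.22 on the log2(CPM + 1) scale. Col1a1 and Col1a2 encode the chains of type I collagen, the main fibril of scar and of the nerve's outer sheaths. Col1a1 (chromosome 11, 94936224-94953042, plus strand) read 516, 817, 646, 619 and 686 CPM in the intact libraries, 3644, 2587, 1334, 6323 and 6127 CPM at 7 dpi and 2343, 6022, 8030 and 6299 CPM at 14 dpi. Its difference was 2.41 in the first week and 0.58 in the second, when replicate 1 (2343 CPM) lay below 4 of the 5 libraries at 7 dpi. Col1a2 (chromosome 6, 4505493-4541544, plus strand) read 507, 676, 609.9, 603 and 803 CPM in the intact libraries, 1851, 1540, 748, 3315 and 3405 CPM at 7 dpi and 1786, 3916, 5244 and 4251 CPM at 14 dpi, with differences of 1.58 and 0.90. Replicate 1 at 14 dpi was again within the 7 dpi range and the other 3 were above it.

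Col5a2, a chain of the type V collagen that sets fibril width, lies 24.6 kb from Col3a1 on chromosome 1. It averaged 374 ± 149.5 CPM at 7 dpi (SD, n = 5) and 535 ± 170.4 CPM at 14 dpi (n = 4), and its difference of 0.55 was smaller than that of its neighbour Col3a1. Col26a1, a short collagen, read 0.110, 1.85, 0.703, 0.541 and 2.83 CPM in the intact libraries, 9.55, 10.3, 2.18, 14.3 and 22.2 CPM at 7 dpi and 11, 7.30, 24.3 and 28.2 CPM at 14 dpi. Col2a1, the collagen of cartilage, was low throughout, and its intact replicate 2 (14.8 CPM) exceeded 3 of the 4 libraries at 14 dpi. Set per kilobase of exon, mean levels at 14 dpi were 1278 RPKM for Col3a1, 957 for Col1a1, 710.4 for Col1a2, 80.7 for Col5a2, 6.35 for Col26a1 and 2.00 for Col2a1. The type I and III chains were thus the most abundant of the 43 genes by length, and the other collagens spanned a wide range below them. Of 19 fibrillar and associated collagens in a list of that family, 7 were called higher and none lower at 14 than at 7 dpi, and 4 of the 19 are among the 43 genes. The list's median log2 fold change was 0.57, against 0.06 over all genes tested.

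**Figure D2:**
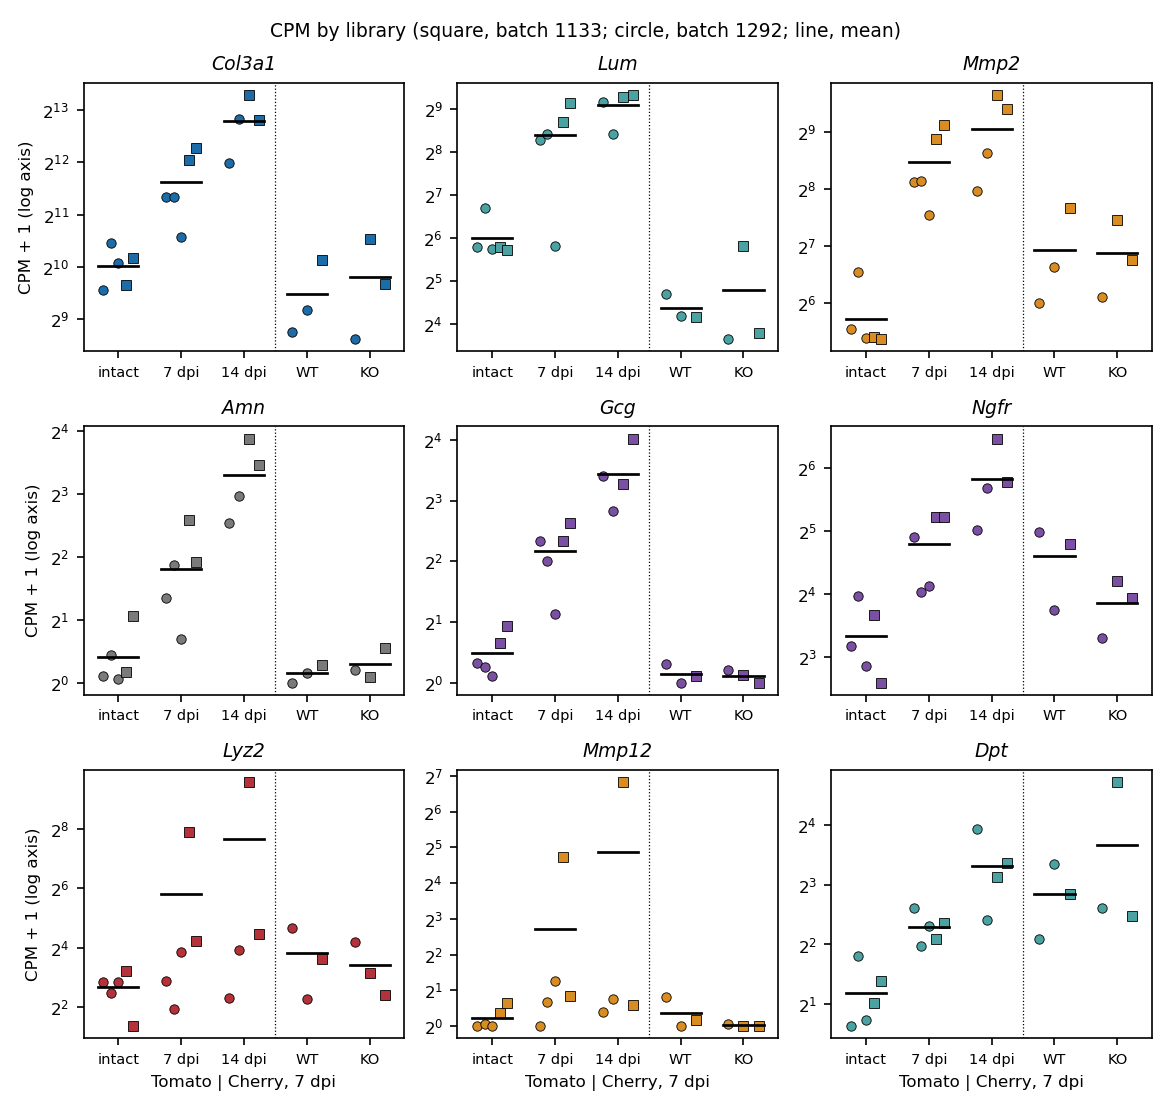
CPM + 1 on a log axis for 9 of the 43 genes in each library, by group (Tomato intact, 7 and 14 dpi; Cherry WT and KO at 7 dpi); squares are batch 1133, circles batch 1292 and lines group means. Col3a1, Lum and Mmp2 are low in the Cherry libraries, Amn and Gcg lie near 0 there, Dpt does not, and for Lyz2 and Mmp12 1 library in each injured Tomato group lies far above the others.

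Among the 7 other matrix proteins, Adamtsl2 had the greatest difference from 7 to 14 dpi and Lum and Postn were the most abundant. Adamtsl2, a secreted relative of the ADAMTS proteases that lacks the catalytic domain and binds microfibrils (chromosome 2, 27079379-27108981, plus strand), read 0.146, 2.40, 0.407, 0.541 and 4.03 CPM in the intact libraries, 3.20, 5.13, 1.56, 10.2 and 11.7 CPM at 7 dpi and 10.9, 13.4, 27.8 and 16.2 CPM at 14 dpi. At 14 dpi 3 of the 4 libraries exceeded all at 7 dpi, and the difference was 1.45. Lum, lumican, is a small leucine-rich proteoglycan that spaces collagen fibrils. It read 54.1, 102, 52.3, 54.5 and 51.9 CPM in the intact libraries, 307, 339, 54.8, 414 and 561 CPM at 7 dpi and 577, 340.3, 623 and 639.8 CPM at 14 dpi. Replicate 3 at 7 dpi, at 54.8 CPM, was within the intact range, and without it Lum no longer met the rule. Postn, periostin, a matricellular protein of healing tissue, read 784, 887, 374, 1729 and 2085 CPM at 7 dpi and 1164, 1983, 2056 and 1476 CPM at 14 dpi, so that no 14 dpi library exceeded the highest at 7 dpi. Its difference from 7 to 14 dpi was -0.12 in batch 1133 and 1.25 in batch 1292.

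Dpt, dermatopontin, which binds decorin and collagen, read 0.549, 2.50, 0.666, 1.02 and 1.63 CPM in the intact libraries, 5.14, 2.93, 3.99, 3.29 and 4.13 CPM at 7 dpi and 14.4, 4.35, 7.81 and 9.27 CPM at 14 dpi. The 14 dpi values were above all 7 dpi values in 3 of 4 libraries, led by replicate 1, the library that was low for the collagens. Podn, podocan, another leucine-rich proteoglycan, Cilp, a cartilage matrix protein that binds TGF-beta, and Igsf10, a secreted immunoglobulin-domain protein, had smaller differences of 0.60, 0.51 and 0.51. Only 1 or 2 of the 4 libraries at 14 dpi exceeded the 7 dpi range in these 3 genes. In a list of 12 small leucine-rich proteoglycans, 5 were called higher and none lower at 14 than at 7 dpi, with a median log2 fold change of 0.80. Only Lum and Podn of the 12 are among the 43 genes. Dcn, decorin, the most abundant of the list, had a different course: it read 8419, 5721, 10499, 13434 and 11617 CPM in the intact libraries, 3361, 3673, 694, 4434 and 5497 CPM at 7 dpi and 7603, 8156, 10756 and 12587 CPM at 14 dpi. Of 23 matricellular proteins 5 were called higher and 1 lower, and the list's median was 0.02.

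The 8 secreted proteases and carboxypeptidases ranged from abundant to near the level threshold. Mmp2, gelatinase A, which cuts denatured collagen (chromosome 8, 92827291-92853420, plus strand), read 45.6, 91.8, 40.6, 41.0 and 40.1 CPM in the intact libraries, 276, 283, 186, 471 and 557 CPM at 7 dpi and 250.1, 398, 801 and 675 CPM at 14 dpi. All 7 dpi libraries were above all intact ones, while at 14 dpi 2 of 4 were above the 7 dpi range and replicate 1 was within its lower part. Htra3, a secreted serine protease, read 8.12, 17.7, 7.92, 8.88 and 7.30 CPM in the intact libraries, 26.4, 27.5, 18.6, 61.8 and 51.1 CPM at 7 dpi and 39.6, 65.4, 138 and 97.3 CPM at 14 dpi. Its difference from 7 to 14 dpi, 1.17, was similar in batch 1133 (1.03) and batch 1292 (1.06). Cpz, a carboxypeptidase with a Wnt-binding frizzled domain, lies 126 kb from Htra3 on chromosome 5 and differed by -0.01 and 1.13 in the 2 batches. Adamts17, a metalloprotease of microfibrils, read 5.91, 5.08, 7.03, 8.71 and 8.74 CPM at 7 dpi and 8.92, 15.6, 19.6 and 13.3 CPM at 14 dpi. The 2 groups did not overlap, and the difference was 0.90.

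Cpxm1, a carboxypeptidase-like protein, read 60.1, 77.4, 24.9, 138 and 194 CPM at 7 dpi and 51.5, 107, 165 and 184 CPM at 14 dpi, and no 14 dpi library exceeded the highest at 7 dpi. Masp1, which starts the lectin pathway of complement, read 21.9, 32.8, 12.8, 4.52 and 10.7 CPM in the intact libraries, 24.6, 61.7, 42.0, 23.4 and 30.0 CPM at 7 dpi and 71.9, 50.3, 60.5 and 51.8 CPM at 14 dpi. Mmp3, stromelysin, averaged 5.34 CPM at 14 dpi. Mmp12, its neighbour on chromosome 9 at a distance of 76.3 kb, followed the macrophage genes below. A list of proteases and inhibitors had 7 genes called higher and 5 lower of 35 tested between 7 and 14 dpi, with a median of 0.29. Of the metalloproteinases in the list, Mmp9 was called lower, at 12.1 CPM on average at 7 dpi and 2.70 CPM at 14 dpi (edgeR adjusted p = 0.0199). Mmp13 averaged 3.05 and 0.19 CPM and was not called (edgeR adjusted p = 0.0589).

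Macrophage-expressed genes met the rule through 2 libraries. Lyz2, lysozyme of myeloid cells, read 6.26, 4.59, 6.22, 8.40 and 1.59 CPM in the intact libraries, 6.35, 2.84, 13.6, 236 and 17.6 CPM at 7 dpi and 3.94, 14.2, 756 and 21.3 CPM at 14 dpi. Replicate 4 at 7 dpi and replicate 3 at 14 dpi were each far above the other libraries of their group. At 14 dpi replicate 1 lay within the intact range, and replicates 2 and 4 (14.2 and 21.3 CPM) lay above it. Mmp12, the metalloelastase of macrophages, read 0, 0.587, 1.40, 25.3 and 0.789 CPM at 7 dpi and 0.315, 0.699, 112 and 0.513 CPM at 14 dpi. Ctss, the lysosomal protease cathepsin S, read 1.79, 0.587, 2.42, 39.0 and 2.70 CPM at 7 dpi and 0.787, 2.91, 183 and 4.39 CPM at 14 dpi. C1qb, a chain of the complement starter C1q, reached 20.9 and 76.7 CPM in the same 2 libraries, and Gpnmb, a glycoprotein of phagocytic cells, 55.0 and 267 CPM. Without replicate 3 at 14 dpi the difference from 7 to 14 dpi was -0.03 for C1qb, -0.48 for Ctss, -0.53 for Gpnmb, -0.59 for Lyz2 and -0.91 for Mmp12. That setting kept replicate 4 at 7 dpi. With both libraries left out, Mmp12 was still below 0, whereas C1qb, Ctss, Gpnmb and Lyz2 were above 0. None of these genes met the rule then.

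Other macrophage markers, outside the 43 genes, were read in the same libraries. Csf1r, the receptor for the macrophage growth factor, was at 8.14 CPM in replicate 4 at 7 dpi and 36.8 CPM in replicate 3 at 14 dpi, and at 0.0978 to 3.65 CPM in the other 12 Tomato libraries. Itgam was at 0.306 and 0.790 CPM there and at most at 0.0776 CPM in the others. Ptprc, which encodes the CD45 of the sort gate, was highest in replicate 3 at 14 dpi (8.16 CPM) but did not set replicate 4 at 7 dpi apart: it was at 1.49 CPM there and at 4.16 CPM in intact replicate 5. Of the whole macrophage list, with C1qb, Ctss and Lyz2, 13 markers were tested between 7 and 14 dpi. The edgeR test called 0 of them, and 1 had an unadjusted p under 0.05, against 21.85% of all genes tested. The part of carried-over cells in the values of Lyz2, Mmp12, Ctss, C1qb and Gpnmb was not tested.

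Of the 10 ligands, receptors and signalling proteins, Gcg, Bmper, Ngfr and Dlk1 differed by at least 1 from 7 to 14 dpi. Gcg, which encodes the precursor of glucagon and GLP-1 and is known from pancreas and gut (chromosome 2, 62474530-62483650, minus strand), read 0.256, 0.200, 0.0740, 0.573 and 0.901 CPM in the intact libraries, 4.02, 3.03, 1.19, 4.05 and 5.22 CPM at 7 dpi and 9.66, 6.09, 8.63 and 15.2 CPM at 14 dpi. All 3 groups were separate, and the difference from 7 to 14 dpi was 1.29. In the Cherry libraries Gcg was at 0 to 0.239 CPM. Bmper, a secreted BMP-binding protein of vessel growth, read 4.12, 7.38, 1.32, 8.52 and 13.8 CPM at 7 dpi and 8.50, 12.3, 15.5 and 20.9 CPM at 14 dpi, a difference of 1.11 with 2 of 4 libraries above the 7 dpi range. Ngfr, the p75 neurotrophin receptor and a mark of repair Schwann cells, read 7.98, 14.6, 6.25, 11.6 and 5.02 CPM in the intact libraries, 29.1, 15.4, 16.6, 36.4 and 36.3 CPM at 7 dpi and 31.5, 50.3, 87.7 and 54.0 CPM at 14 dpi. Its difference was 0.90 in batch 1133 and 0.99 in batch 1292.

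Schwann markers other than Ngfr also differed between these times. The 11 of them summed to 143 to 205 CPM at 7 dpi and 613 to 2208 CPM at 14 dpi. Of the whole list, with Ngfr, 11 were tested and 6 were called higher. The part of Schwann cell RNA in the values of Ngfr was not tested.

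Dlk1, an imprinted Notch-related ligand of growing tissue, read 5.24, 2.88, 7.23, 6.38 and 4.43 CPM at 7 dpi and 19.1, 8.58, 13.8 and 6.86 CPM at 14 dpi, with replicate 1 highest. Antxr1, a collagen-binding receptor also known as tumour endothelial marker 8 (chromosome 6, 87133853-87335764, minus strand), read 21.3, 23.6, 15.7, 15.7 and 21.3 CPM in the intact libraries, 38.5, 33.3, 42.0, 38.9 and 52.2 CPM at 7 dpi and 53.1, 60.1, 70.4 and 54.8 CPM at 14 dpi. All 3 groups were separate although the difference from 7 to 14 dpi was only 0.54. S100a4, a calcium-binding protein of motile and fibroblastic cells, read 8.73, 10.9, 9.29, 5.54 and 6.49 CPM at 7 dpi and 10.9, 11.8, 12.9 and 13.3 CPM at 14 dpi. Ptx3, a secreted pattern-recognition protein, split by batch, at 2.68, 3.77, 16.7 and 15.3 CPM at 14 dpi, the last 2 values being batch 1133. The orphan receptor Gpr153, the adenylate cyclase Adcy7 and the microtubule-associated kinase Dclk1 had differences of 0.67, 0.51 and 0.53.

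The remaining 8 genes share no role. Amn, amnionless, the membrane anchor of the vitamin B12 receptor cubilin (chromosome 12, 111271095-111276426, plus strand), had the highest difference of the 43 from 7 to 14 dpi, 1.53. It read 0.0732, 0.350, 0.0370, 0.127 and 1.07 CPM in the intact libraries, 1.55, 2.64, 0.616, 4.97 and 2.79 CPM at 7 dpi and 4.83, 6.79, 13.7 and 10.0 CPM at 14 dpi. At 14 dpi 3 of 4 libraries exceeded the 7 dpi range, and the lowest, replicate 1 at 4.83 CPM, lay just under the highest at 7 dpi, 4.97 CPM. Tspan11, a tetraspanin, was at 27.7 ± 18.1 CPM at 7 dpi (SD, n = 5) and 51.6 ± 21.2 CPM at 14 dpi (n = 4). Nipal1, a magnesium transporter, read 4.31, 4.40, 2.22, 6.42 and 5.28 CPM at 7 dpi and 6.56, 7.61, 9.39 and 12 CPM at 14 dpi, without overlap. Plac8, a small cysteine-rich protein, had the highest first-week difference of the 43, 3.14, and then 0.59. Plekhf1, an endosomal protein, Gxylt2, a xylosyltransferase acting on Notch, Upk1b, a uroplakin, and Pcdhb9, a clustered protocadherin, had differences of 0.57, 0.55, 0.74 and 0.64 from 7 to 14 dpi. The protocadherin genes are close copies of each other, and reads of Pcdhb9 may be shared with them.

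The 43 genes were chosen on the libraries of both batches together, which largely fixes the sign within each batch, so the values by batch are a description. The difference from 7 to 14 dpi was above 0 in 40 of 43 genes in batch 1133 (median 0.68) and in 40 of 43 in batch 1292 (median 0.69), in 37 in both, and at least 0.5 in both in 16. The exceptions were Postn, Cpz and Adcy7 (-0.12, -0.01 and -0.01) in batch 1133 and Ptx3, Mmp12 and Gpnmb (-0.29, -0.06 and -0.06) in batch 1292. What follows is a description too, since it splits the same samples that chose the 43 genes. The rule was applied within 1 batch, with 2 libraries at 14 dpi, and its genes were read in the other. It then took 56 genes from batch 1133, 26 of them among the 43, and 45 of the 56 (80.4%) had a difference above 0 in batch 1292, with a median of 0.60, against 49.3% of all 10778 genes. It took 32 genes from batch 1292, 22 of them among the 43, and 23 of the 32 (71.9%) had a difference above 0 in batch 1133, with a median of 0.31, against 48.4% of all genes. The 10 genes chosen in both batches were Adamts17, Adamtsl2, Amn, Col3a1, Dpt, Gcg, Htra3, Ngfr, Nipal1 and Tspan11.

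**Figure D3:**
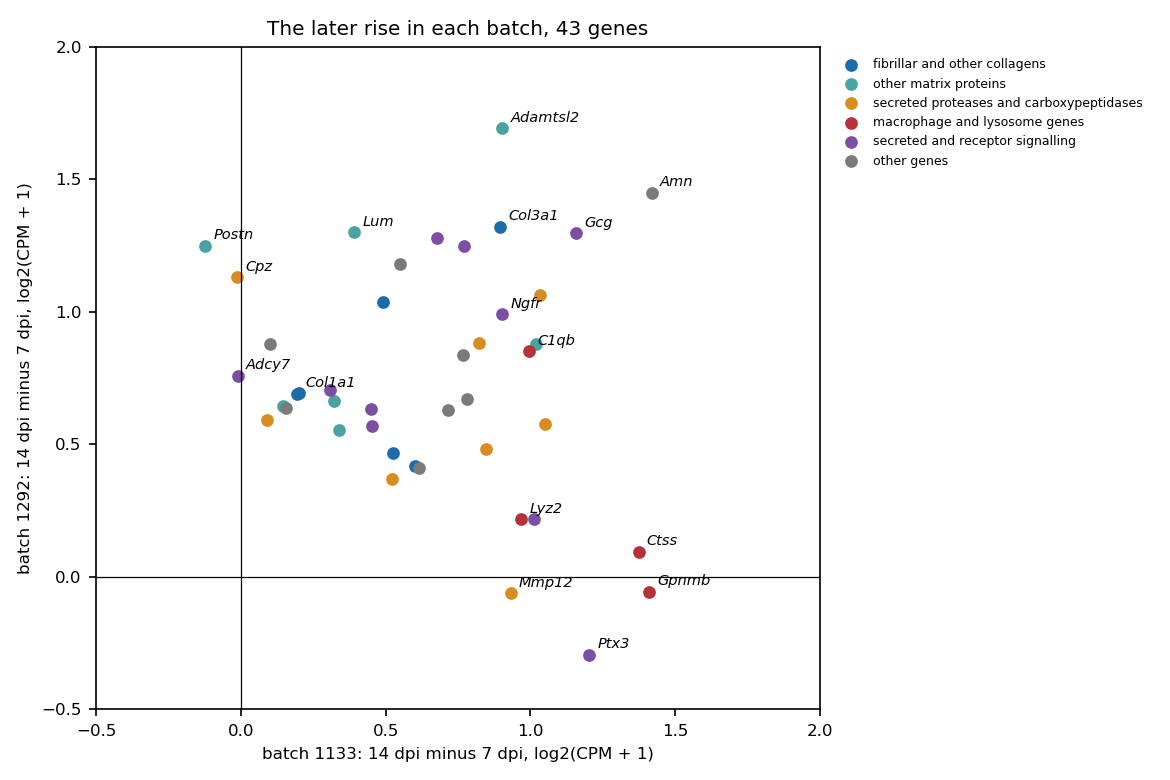
Difference in log2(CPM + 1) between 14 and 7 dpi in batch 1133 (x axis) and batch 1292 (y axis) for the 43 genes, coloured by role. Amn, Gcg and Col3a1 lie high on both axes, Postn, Cpz and Adcy7 lie left of 0 in batch 1133, and Ptx3, Mmp12 and Gpnmb lie below 0 in batch 1292.

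Leaving out 1 Tomato library at a time changed how many genes met the rule, from 21 without replicate 3 at 14 dpi to 58 without replicate 1 at 14 dpi, which was low for the collagens. Without replicate 3 at 7 dpi, the library low in matrix genes, 31 genes met it and 23 of them were among the 43; Lum, Postn, Col1a1, Mmp2 and Col5a2 were lost. There were 12 genes that met the rule under each of the 14 left-out libraries: Amn, Adamtsl2, Gcg, Col3a1, Htra3, Bmper, Ngfr, Tspan11, Dpt, Col1a2, Adamts17 and Nipal1. With replicate 4 at 7 dpi and replicate 3 at 14 dpi both left out, a choice made after the data were seen, 28 genes met it, 26 of them among the 43.

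The wild-type Cherry libraries, sorted from the same region at 7 dpi by the other reporter, held less of most of these genes than the Tomato libraries of that time. The 2 experiments were scaled separately and are set side by side without a test. The difference in log2(CPM + 1), Cherry WT minus Tomato 7 dpi, had a median of -1.46 over the 43 genes, 0.11 over the 807 genes up at 7 dpi and 0.02 over all 10778. It was at least 0 in 4 genes, from 0 to -1 in 12, from -1 to -3 in 23 and under -3 in 4. All Cherry WT libraries were below all Tomato 7 dpi libraries in 20 of the 43 genes (9.59% of all genes), above in 1 and overlapping in 22. In bulk samples, fewer cells of a type and less RNA per cell cannot be told apart.

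The 4 genes under -3 were Cpxm1 (-3.75), Lum (-3.73), Podn (-3.26) and Col1a1 (-3.19). Lum read 24.6, 16.9 and 16.8 CPM in the Cherry WT libraries, below each intact and injured Tomato library. Col1a1 read 222, 348 and 698 CPM there, Col1a2 189.8, 266 and 467 CPM and Col3a1 433, 574 and 1122 CPM. All 3 collagens lay under every Tomato library at 7 dpi; Col1a2 was also under every intact library, while Col1a1 and Col3a1 overlapped the intact range. Amn was at 0, 0.110 and 0.212 CPM and Gcg at 0.239, 0 and 0.0849 CPM, close to the limit of detection, and 11 of the 43 genes had a mean under 1 CPM in Cherry WT.

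The 4 genes that were at least as high in Cherry WT were Pcdhb9 (0.75), Dpt (0.49), Masp1 (0.38) and Dlk1 (0.16). Pcdhb9 read 26.6, 18.7 and 23.8 CPM in Cherry WT, above each Tomato library at 7 dpi. Dpt read 3.27, 9.19 and 6.20 CPM, and Masp1 39.2, 33.6 and 66.0 CPM. Next were C1qb (-0.09), Adamts17 (-0.12), Ngfr (-0.20), S100a4 (-0.28), Antxr1 (-0.38) and Adamtsl2 (-0.43), whose Cherry WT and Tomato ranges overlapped. Antxr1 read 35.4, 24.5 and 33.7 CPM and Adamts17 5.91, 4.87 and 8.66 CPM. The sign of this difference for Dlk1 was negative without Cherry WT replicate 3 (-0.41) and for Masp1 in batch 1292 alone (-0.14).

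**Figure D4:**
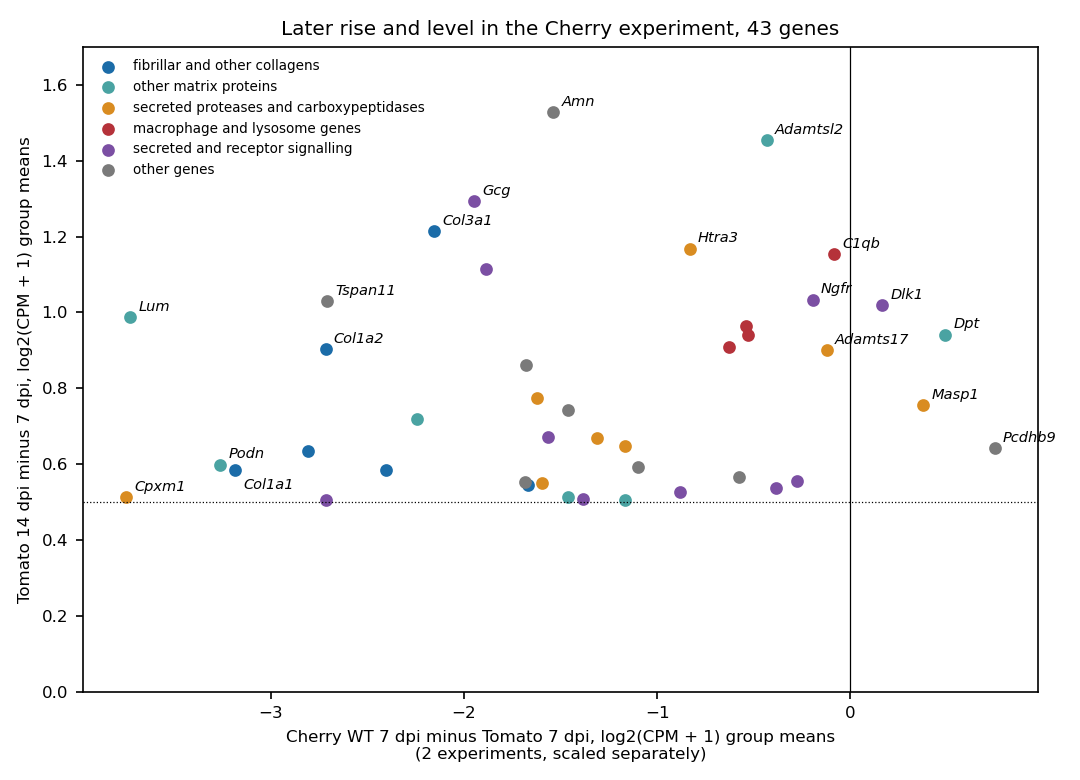
For each of the 43 genes, the difference between Cherry WT and Tomato at 7 dpi (x axis) and between Tomato 14 and 7 dpi (y axis), both in log2(CPM + 1) group means; the dotted line is the 0.5 of the rule and the 2 experiments were scaled separately. Cpxm1, Lum, Podn and Col1a1 lie farthest left, the other collagens lie between -1 and -3, and Pcdhb9, Dpt, Masp1 and Dlk1 lie right of 0.

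Marker lists of other cells, read in the same way, are given beside these values. The 13 fibroblast markers outside the 43 genes summed to 11538 to 20306 CPM in the intact libraries, 3626 to 9460 CPM at 7 dpi, 12263 to 19876 CPM at 14 dpi and 2875 to 3231 CPM in Cherry WT. Of the Cherry WT sum, Cd34 and Ly6a, which endothelial cells express as well, made up 2253 and 602 CPM on average. Dcn, the marker with the highest mean in each Tomato group, read 61.9, 65.4 and 61.8 CPM in Cherry WT and at least 694 CPM in each Tomato library at 7 dpi. Pdgfra, a defining fibroblast receptor, read 34.4, 53.3, 11.9, 34.6 and 49.7 CPM in Tomato at 7 dpi. It read 35.5, 51.55, 42.9 and 44.2 CPM at 14 dpi, within the 7 dpi range, unlike the marker sum. In Cherry WT it read 4.55, 1.24 and 3.01 CPM. Its level in intact nerve (57.1, 35.2, 65.9, 38.6 and 52.6 CPM) overlapped that at 7 dpi. These groups also overlapped for Col1a2, Lum and Postn, but not for Col1a1 and Col3a1. Of the whole list of 18 fibroblast markers, 5 of which are among the 43 genes, 6 were called higher and 1 lower at 14 than at 7 dpi. Perineurial markers summed to 646 to 1332 CPM at 7 dpi, 1869 to 3914 CPM at 14 dpi and 475 to 485 CPM in Cherry WT. The 16 pan-endothelial markers were all at least as high in Cherry WT as in Tomato at 7 dpi (median difference 0.42). They summed to 10128 to 15035 CPM at 7 dpi and 8579 to 11121 CPM at 14 dpi. Between these times their median difference was -0.29, with 4 of 16 above 0 in each batch, and edgeR called 1 higher and 0 lower, with 4 at an unadjusted p under 0.05. The part of this shift in the differences of the 43 genes was not tested. The mean of the 13 fibroblast markers was also set as a covariate in the edgeR fit. The log2 fold change from 7 to 14 dpi was then above 0 in 32 of the 43 genes (median 0.44, compared with 43 and 0.82 without it). None was called and 6 had an unadjusted p under 0.05 (other fits called 0 to 20). Over all 20409 genes tested, 273 were called higher with the covariate and 1170 without it. The CPM sums of these markers did not overlap between 7 and 14 dpi. The covariate itself was their mean log2 CPM in each library, which is not given here. How far this fit can separate time from marker level was not examined, and nothing is read from it. The 11 genes below 0 in that fit, from -1.01 to -0.09, were Adcy7, Cilp, Col1a1, Col26a1, Col2a1, Cpxm1, Cpz, Lum, Mmp2, Podn and Postn. Whether carried-over fibroblast RNA or expression in the reporter-positive cells gave the levels was not tested.

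The Cherry libraries also allow a comparison that the choice of genes did not use, that of endothelial Plxnd1 deletion with control at 7 dpi. None of the 43 genes was called by it in the main fit. Of the 37 that passed the filter on low counts, edgeR's quasi-likelihood test called 0 higher (0.129% of all 16227 genes tested) and 0 lower (0.179%), and 5 (13.5%) had an unadjusted p under 0.05, a share near the 11.5% of all genes tested. DESeq2 called 0 of 43, with 4 (9.30%) at an unadjusted p under 0.05 against 5.49% of all genes. The log2 fold change, KO against WT, was above 0 in 13 of the 37 and had a median of -0.21, against -0.01 over all genes. Without a batch term it was above 0 in 23 with a median of 0.23. The 6 genes that were not tested (Amn, Gcg, Cpz, Mmp12, Upk1b and Col26a1) had means under 1 CPM in both groups.

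The 5 genes with an unadjusted p under 0.05, none of them called in the main fit, had negative fold changes in KO. Antxr1 and Ngfr were each called lower in 1 alternative fit, with no filter on low counts or with the ComBat-Seq table. Over all genes, 144 of 43212 and 245 of 16131 were called lower in these fits. Antxr1 read 35.4, 24.5 and 33.7 CPM in WT and 19.7, 22.2 and 21.6 CPM in KO, without overlap, with a log2 fold change of -0.55 ± 0.16 (SE; edgeR adjusted p = 0.227). It was the one gene of the 43 whose KO values all lay under its WT values, which held for 7.51% of all genes. Ngfr read 30.7, 12.4 and 26.9 CPM in WT and 8.88, 17.5 and 14.3 CPM in KO (-0.93 ± 0.32, edgeR adjusted p = 0.327), with overlap. The 11 other Schwann markers summed to 137 to 463 CPM in WT and 104 to 204 CPM in KO. The part of this in the value of Ngfr was not tested. Adamtsl2 (-1.04 ± 0.40), Nipal1 (-1.98 ± 0.76) and Col5a2 (-0.32 ± 0.15) had edgeR adjusted p-values of 0.345, 0.345 and 0.434. For Col5a2 the sign turned to 0.04 without the batch term.

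The main collagens did not differ by more than their error: -0.10 ± 0.30 for Col3a1, -0.23 ± 0.39 for Col1a1 and -0.23 ± 0.31 for Col1a2 (edgeR adjusted p = 0.936, 0.871 and 0.824). Their KO values spread widely, with Col3a1 at 392, 1480 and 813 CPM, and in both genotypes the libraries of batch 1133 read higher than those of batch 1292. On the higher side, Mmp3 (0.95 ± 0.62), Adcy7 (0.79 ± 0.49), Cilp (0.78 ± 0.54) and Dlk1 (0.60 ± 0.34) had adjusted p-values of 0.581, 0.559, 0.632 and 0.522 in edgeR. Adcy7 was the one gene with every KO library above every WT library (4.29% of all genes), at 0.439, 0.878 and 1.66 CPM in WT and 1.66, 1.98 and 1.78 CPM in KO. A value that misses the threshold with 3 libraries a group does not show that the genotypes were alike. Of the lists of collagens, leucine-rich proteoglycans, matricellular proteins and fibroblast markers, edgeR called 0 genes in this comparison, and 1, 0, 1 and 1 had an unadjusted p under 0.05.

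**Figure D5:**
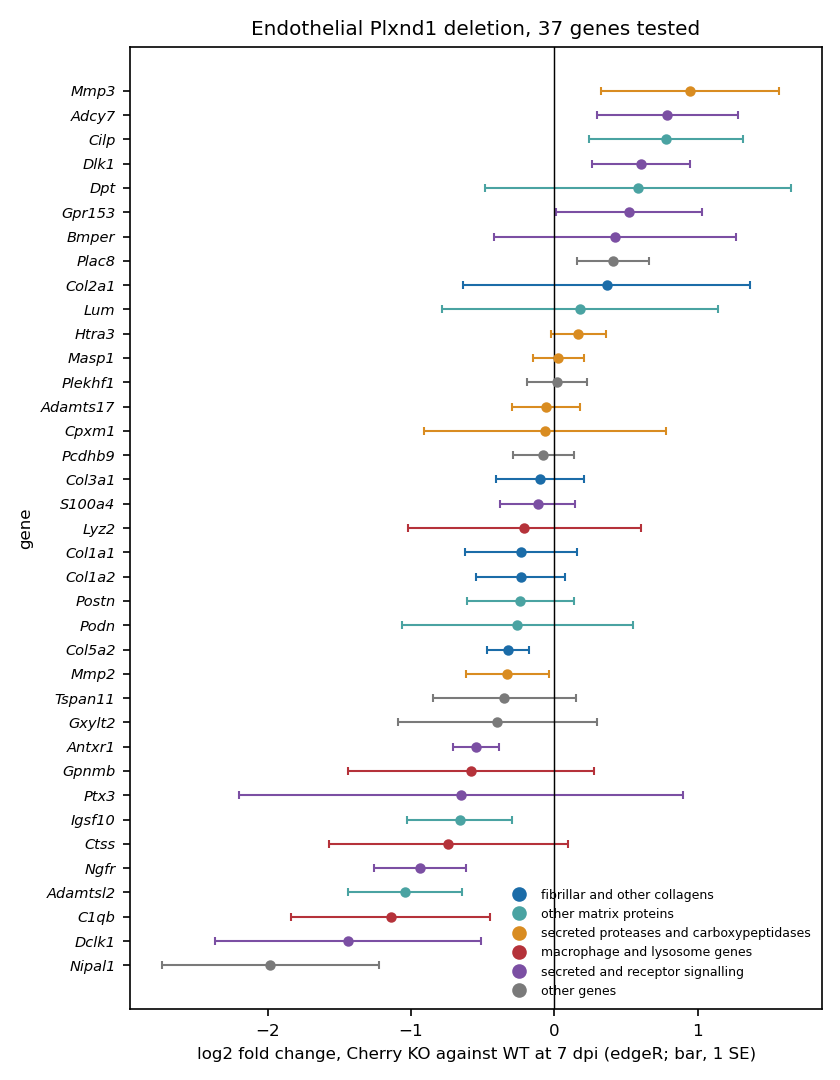
Log2 fold change of Cherry KO against WT at 7 dpi with its SE (edgeR, batch in the model) for the 37 of the 43 genes that were tested, coloured by role. Of these, 13 lie above 0, none passed the adjusted p of 0.05, and the widest bars belong to genes of low or uneven counts such as Ptx3 and Dpt.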

How the data were processed

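The deposited tables held raw counts per gene as whole numbers, per the file headers, 1 for each experiment, with gene coordinates and exonic length. The authors also deposited a ComBat-Seq version of the Cherry counts, used here only as an alternative. Trimmomatic 0.39, STAR 2.5.3a, featureCounts 1.6.4, Cell Ranger 3.0.2 and the build mm10 (GRCm38) are listed, per the submitters' processing notes. Neither strandedness nor multimapper handling is stated there (not given in the sources used here). Per the labels' protocols, nerves were pooled, kept in enzymes at 37 C for 30 min and sorted.

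The 43 genes were chosen from column-sum CPM with the rule in the report. The genes, the gene lists, the marker lists and the alternatives were chosen with earlier results of these data known. RPKM were computed from CPM and the deposited exonic length. Tests used edgeR 4.0.16 (filterByExpr, TMM, robust quasi-likelihood F test, batch as a covariate, Benjamini-Hochberg adjustment over all genes tested), with all 14 Tomato libraries in 1 fit and the 6 Cherry libraries in another. The SE was approximated as |log2 fold change| / sqrt(F). The fit was checked on simulated counts. Replicate numbers follow accession order, and p-values measure the spread between pooled libraries, which may be technical.

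The naming rule took the 12 genes with the greatest difference from 7 to 14 dpi, the 12 with the highest level at 14 dpi, the 10 highest and 10 lowest by Cherry WT minus Tomato 7 dpi, members of a list, genes called in the KO comparison and the 2 nearest each threshold. It covered 34 of the 43, and the other 9 were named so that each gene is accounted for. Promoters came from RefSeq (GRCm38.p6); 10 of the 43 genes had none in that table. Alternatives were other scalings, pseudocounts, filters, DESeq2, no batch term, the fibroblast markers as a covariate, the ComBat-Seq table, each batch alone and each library left out.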

Additional observations from a re-analysis of the deposited data

Results flagged for a closer look

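In each Tomato group the level of each of the 43 genes was checked for a library far from the rest, by the gap to the nearest other library over the group's range in log2(CPM + 1). Of 129 groups of values 10 stood out, in 7 genes, and chance gives about 1 in 20. Macrophage-expressed genes gave 4: in replicate 4 at 7 dpi, C1qb was at 20.9 CPM (0.244 to 1.73 in the other libraries), Ctss at 39.0 CPM (0.587 to 2.70) and Mmp12 at 25.3 CPM (0 to 1.40), and in replicate 3 at 14 dpi Mmp12 was at 112 CPM (0.315 to 0.699). Lum gave 3: it was at 54.8 CPM in replicate 3 at 7 dpi (307 to 561 in the others), at 340.3 CPM in replicate 2 at 14 dpi (577 to 640) and at 102 CPM in replicate 2 of intact nerve (51.9 to 54.5). The same intact library was high for Htra3, at 17.7 CPM (7.30 to 8.88), and for Mmp2, at 91.8 CPM (40.1 to 45.6). Bmper was at 3.86 CPM in replicate 5 of intact nerve (1.17 to 1.67). The cause of these deviations was not tested.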

How the results depend on the processing

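The number of genes that met the rule was 21 to 58 with 1 library left out, 21 without replicate 3 at 14 dpi and 28 without that library and replicate 4 at 7 dpi (chosen after seeing the data). The median difference Cherry WT minus Tomato 7 dpi was -1.02 with a pseudocount of 2. Of the 43 genes, edgeR called 6 higher at 14 than at 7 dpi; this was 20 with no filter on low counts, 1 with no batch term, 13 with DESeq2, 0 with the fibroblast list as a covariate, 0 in batch 1133 alone and 0 in batch 1292 alone (both chosen after seeing the data), and 2 to 7 with 1 library left out. Over all genes tested, the main fit called 1170 of 20409 higher. This was 1364 of 50031 with no filter and 697 of 20409 with no batch term. DESeq2 called 1729 of 16074 and the covariate fit 273 of 20409. Batch 1133 alone gave 264 of 24119, batch 1292 alone 249 of 19692, and left-out libraries 762 to 1142. In the KO comparison 0 of the 43 were called, and 1 was lower with no filter and 1 lower with the ComBat-Seq table. These calls were for Antxr1 and Ngfr, each in 1 of the fits. Over all genes, 144 of 43212 and 245 of 16131 were lower in these 2 fits. The cause of these shifts was not tested, beyond the smaller number of libraries in the fits of 1 batch.

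The difference from 7 to 14 dpi reversed in 9 genes. It was -0.0566 for Gpnmb, -0.0627 for Mmp12 and -0.29 for Ptx3 in batch 1292, and -0.0136 for Cpz, -0.12 for Postn and -0.0112 for Adcy7 in batch 1133. With 1 library left out it was -0.0328 to 1.87 for C1qb, -0.48 to 1.75 for Ctss, -0.53 to 1.89 for Gpnmb, -0.59 to 1.84 for Lyz2 and -0.91 to 1.45 for Mmp12, each lowest without replicate 3 at 14 dpi. Mmp12 was at -0.11 without both libraries rich in macrophage genes, while C1qb, Ctss, Gpnmb and Lyz2 were above 0 there. The difference Cherry WT minus Tomato 7 dpi reversed in 9 genes: in batch 1292 it was 0.85 for C1qb, 0.0035 for Ngfr, -0.36 for Dlk1, 0.16 for Ctss, 0.79 for Gpnmb, 0.58 for Lyz2 and -0.14 for Masp1, and in batch 1133 it was 0.014 for S100a4. With 1 library left out it was -0.54 to 0.64 for C1qb, -0.43 to 0.19 for Ngfr, -0.41 to 0.60 for Dlk1, -0.98 to 0.23 for Ctss, -1.10 to 0.25 for Gpnmb, -1.20 to 0.30 for Lyz2 and -0.32 to 0.0373 for Adamts17. For Col5a2 the KO difference was 0.0433 without the batch term. For these differences of mean log2(CPM + 1), the other 34 genes kept their sign in each of the first 2 comparisons under the scalings, pseudocounts, single batches and left-out libraries run. In the edgeR fit with the fibroblast covariate, 11 of the 43 were below 0 from 7 to 14 dpi.

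No paired analysis was possible because the labels give the groups no shared replicate numbers. Depth limits the Cherry comparisons most for the 11 genes with a mean under 1 CPM in WT, 6 of which were not tested.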
